A study of Mus musculus with 30 samples.

Results

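The genes described here encode the proteasome, its regulators and the chaperones that assemble it. They were chosen by symbol: every gene with a probe set that carries a single platform gene symbol beginning with Psma, Psmb, Psmc, Psmd, Psme, Psmf or Psmg. That gave 48 of 12393 genes with such a probe set, measured by 85 probe sets, and each gene was represented by its probe set with the highest mean. By role they comprised 8 alpha-ring and 10 beta-ring genes of the 20S core, 6 ATPases and 11 non-ATPases of the 19S cap, 7 assembly chaperones, and 4 activators or inhibitors. The other 2 share the prefix only: Psmc3ip is a meiotic recombination factor, and Psme3ip1 encodes a protein that binds the activator subunit Psme3. Psme2, the partner subunit of Psme1, was left out because its probe set carries more than 1 symbol.

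Expression had been measured in the forebrain of 30 male C57BL mice, an inbred laboratory strain, with 1 Affymetrix MOE430A array per mouse and no pooling. Clozapine, an atypical antipsychotic that binds many receptors, was given to 10 mice at 12 mg/kg/day. Haloperidol, a typical antipsychotic that acts mainly on dopamine D2 receptors, was given to 10 mice at 1.6 mg/kg/day, although the treatment text of this group names clozapine beside that dose. The 10 control mice had no drug. Both drugs were in the drinking water for 12 weeks, all mice were caged singly, and the labels give an age of 4 weeks and the right hemisphere, except that 1 field of the labels says left. Each drug was compared with control and clozapine with haloperidol, since the series was set up to contrast their long-term expression profiles.

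The proteasome degrades proteins that have been tagged with ubiquitin chains. Its barrel-shaped 20S core carries the proteolytic sites on the inner beta rings, while the outer alpha rings form the gate. The 19S cap binds ubiquitin, removes it and unfolds the substrate with a ring of ATPases; other activators can dock on the core in its place. When core activity is inhibited, the transcription factor Nrf1 raises proteasome genes together, and interferon replaces the catalytic beta subunits with immunoproteasome forms. In neurons the system turns over synaptic proteins.

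All values are log2 intensities as deposited, so a difference of 1 is a doubling, and they do not rank different genes by abundance. Testing required a mean of 4 or more across the arrays; 43 of the 48 genes met it, with means between 5.15 and 11.35. The remaining 5 were Psma8, an alpha subunit known from testis, the immunoproteasome subunits Psmb8 and Psmb9, the chaperone gene Psmg4, and Psmc3ip. Markers of neurons were all measured above that level, with gene means between 8.56 and 13.15, and the 3 blood markers measured were all below it. In whole tissue, fewer cells of a type and less RNA per cell cannot be told apart. Array medians lay between 4.63 and 4.88. Away from the other arrays stood clozapine 7, haloperidol 2, haloperidol 7 and control 1, each numbered by its replicate label. In 2 of these the 3′ end of control transcripts exceeded the 5′ end most, by 4.09 in control 1 and 2.45 in haloperidol 7, a measure of RNA integrity in which a larger gap means poorer RNA.

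No proteasome gene passed the test in any comparison after adjustment over all 12944 probe sets tested in limma, and no other probe set did either. In the comparison of clozapine with control 0 of 43 genes were called, against a background of 0 percent of probe sets, and the smallest adjusted p in limma was 0.9997. At an unadjusted p under 0.05 there were 0 of 43 genes, against 563 probe sets or 4.35% of all. For haloperidol against control 0 genes were called against a background of 0 percent (smallest adjusted p = 0.9999 in limma), and 1 gene, Psmd10, had an unadjusted p under 0.05, against 298 probe sets or 2.3%. For clozapine against haloperidol 0 genes were called against a background of 0 percent (smallest adjusted p = 0.965 in limma), and 1 gene, Psmd1, had an unadjusted p under 0.05, against 406 probe sets or 3.14%. Each of these shares lies near or below its background. The comparisons share mice, since each group enters 2 of them.

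The differences were small as a set. In clozapine against control 21 genes were higher and 22 lower, with a median difference of -0.0047 beside 0.023 over all probe sets. In haloperidol against control 24 were higher and 19 lower, with a median of 0.012 beside -0.030. In clozapine against haloperidol 22 were higher and 21 lower, with a median of 0.014 beside 0.050. The 95% intervals bound what these arrays could have missed. The interval lay within 1.5-fold in both directions for 35, 36 and 32 of the 43 genes in the comparisons taken in that order, where 57.5%, 58.4% and 56.1% of all probe sets had intervals that narrow. It lay within 2-fold for all 43 genes in both comparisons with control and for 42 in clozapine against haloperidol, where Psma7 was the exception; the shares of all probe sets were 88.1%, 89.3% and 87.6%. For these shares the probe sets were not matched to the proteasome genes in level. The groups' ranges overlapped for all 43 genes in every comparison, as they did for every probe set tested.

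**Figure D1:**
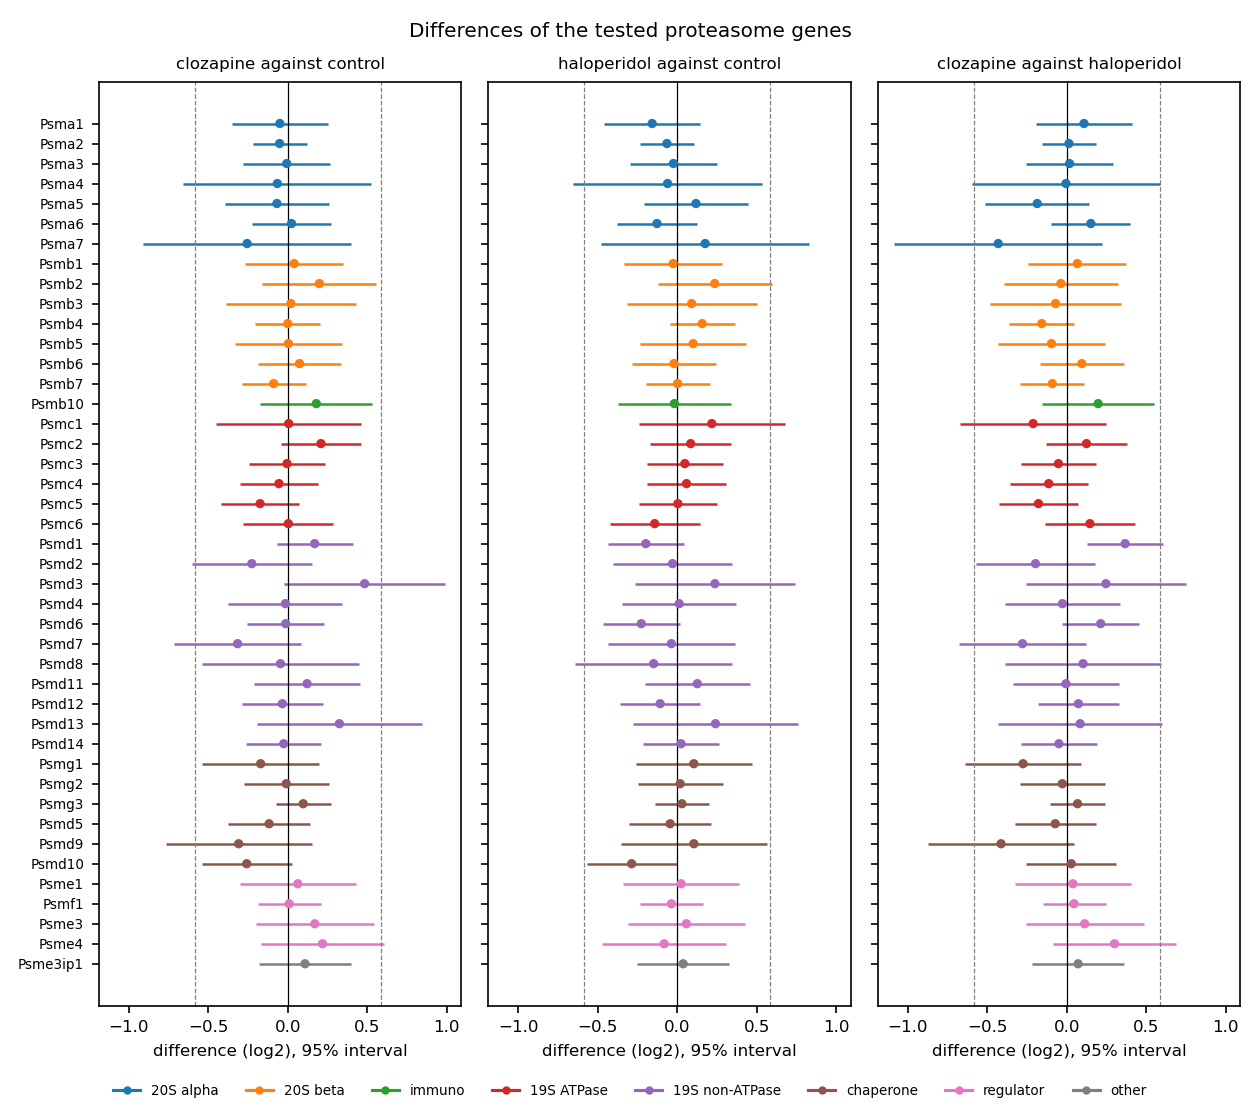
Each point is the difference of group means of 1 gene on the log2 scale, with its 95% interval from limma, and genes are coloured by their role; dashed lines mark 1.5-fold. Apart from Psmd10 in haloperidol against control and Psmd1 in clozapine against haloperidol, every interval includes 0.

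Promoter sequence was taken for 40 of the 48 genes from RefSeq (GRCm38.p6), as 300 bases from 250 before to 50 after the gene start. The motifs were chosen with these promoters at hand, and both strands were searched. The core of the binding site for ETS transcription factors, CGGAAG, was present in 23 of 40 promoters, or 57.5%, against 18.8% of all 27025 promoters in the table and 36.4% of the 6179 promoters of genes with a tested probe set. These 23 included cap genes such as Psmc1, Psmc2, Psmd1 and Psmd6, and the activator Psme4. The core of the antioxidant response element that Nrf1 and Nrf2 bind, TGACNNNGC, was in 6 of 40 proteasome promoters, against 3781 of the 27025 and 1051 of the 6179. CCAAT was in 37.5%, against 41.1% of all, and the GC box GGGCGG in 57.5%, against 38.2% of all and 71.5% of those with a tested gene. Promoters are printed for the genes with an unadjusted p under 0.05, Psmd1 and Psmd10, and for Psme4, which holds both the ETS and the antioxidant core. Capitals mark the ETS core in Psmd1 (bases 179 to 184), CCAAT or its complement ATTGG in Psmd10, and in Psme4 the ETS core (bases 199 to 204) and the antioxidant core read from the other strand (bases 244 to 252). Psmd1 lies at chr1:86064369-86064668 on the plus strand, Psmd10 at chrX:140956662-140956961 on the minus strand, and Psme4 at chr11:30771525-30771824 on the plus strand. The Psmd10 window holds 3 CCAAT boxes and no match to the ETS core as spelled. These matches are letters in a window and were not set against any expression change.
Psmd1: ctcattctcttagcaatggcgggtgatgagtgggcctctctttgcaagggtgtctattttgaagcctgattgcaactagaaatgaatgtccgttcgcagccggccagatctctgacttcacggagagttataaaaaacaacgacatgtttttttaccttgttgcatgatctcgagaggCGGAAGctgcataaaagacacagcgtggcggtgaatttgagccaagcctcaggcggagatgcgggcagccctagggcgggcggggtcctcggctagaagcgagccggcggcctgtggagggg
Psmd10: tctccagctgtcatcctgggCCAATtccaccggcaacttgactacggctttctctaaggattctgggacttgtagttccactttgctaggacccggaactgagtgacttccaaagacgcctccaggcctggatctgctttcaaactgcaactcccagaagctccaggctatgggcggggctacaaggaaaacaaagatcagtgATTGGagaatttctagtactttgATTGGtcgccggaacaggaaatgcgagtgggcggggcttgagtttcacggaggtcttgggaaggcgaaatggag
Psme4: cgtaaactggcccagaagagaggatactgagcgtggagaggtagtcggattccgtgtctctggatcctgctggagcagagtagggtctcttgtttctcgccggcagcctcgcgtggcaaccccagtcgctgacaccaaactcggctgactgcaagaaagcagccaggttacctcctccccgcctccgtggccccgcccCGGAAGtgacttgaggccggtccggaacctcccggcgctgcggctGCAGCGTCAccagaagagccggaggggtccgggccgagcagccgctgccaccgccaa

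In the alpha ring of the core, 7 of 8 genes were tested and none was called. Against control 6 of the 7 were lower in clozapine mice and 5 of the 7 in haloperidol mice, with medians of -0.051 and -0.061. Psma1 had a lowest, median and highest value of 9.31, 9.58 and 10.11 in haloperidol mice, against 9.17, 9.90 and 10.54 in control mice. Its difference was -0.16 (SE 0.15), and 7 of 10 haloperidol arrays lay below the control mean. Further probe sets of Psma1 went the other way, with 0.30 (unadjusted p = 0.0515 in limma) and 0.17. Both had a mean of 4.22, close to the level of 4 required for testing. For Psma6 the lowest, median and highest values were 10.43, 10.68 and 11.26 in clozapine mice, against 10.36, 10.60 and 10.96 in haloperidol mice. Haloperidol values sat in a narrower band, and the difference of 0.15 (SE 0.12) stayed within the spread. A second probe set of Psma6 gave 0.26 for clozapine against control with an unadjusted p of 0.0180 (adjusted p = 0.9997 in limma), where the main one gave 0.024. Another gave 0.23 (unadjusted p = 0.206 in limma). Both of these further sets carry the _x_at suffix of sets whose probes can also match other transcripts. Psma4 and Psma7 varied most within groups. Psma7 averaged 9.32 ± 0.81 in clozapine, 9.75 ± 0.66 in haloperidol and 9.58 ± 0.76 in control mice (SD, n = 10 each), and its interval for clozapine against haloperidol ran from -1.09 to 0.22. Its second probe set gave -0.45, close to the -0.43 of the first. Psma2 and Psma3 had differences between -0.065 and 0.018, and Psma5 reached -0.19 (SE 0.16) in clozapine against haloperidol. Psma8, below the level tested, lay between 2.58 and 2.85 in clozapine, 2.41 and 2.80 in haloperidol and 2.42 and 2.80 in control mice.

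The catalytic beta subunits each come in a constitutive and an immunoproteasome form. Psmb5, which carries the chymotrypsin-like site, had lowest, median and highest values of 9.97, 10.45 and 10.77 in clozapine mice, 9.52, 10.59 and 11.38 in haloperidol mice, and 10.04, 10.42 and 11.07 in control mice. Both ends of the haloperidol range came from the arrays that stand apart, haloperidol 7 at the bottom and haloperidol 2 at the top. Against control its difference was 0.0039 for clozapine (95% interval -0.33 to 0.34) and 0.10 for haloperidol (-0.24 to 0.43). Psmb6, the caspase-like subunit, spanned 8.94 to 9.62 (median 9.49) in clozapine, 8.95 to 10.23 (median 9.21) in haloperidol and 9.19 to 9.54 (median 9.32) in control mice. Clozapine was above control by 0.074 and haloperidol below it by a difference of -0.021, both within the spread. Psmb7, the trypsin-like subunit, had medians of 11.34 in clozapine, 11.44 in haloperidol and 11.38 in control mice, with lowest values of 10.88, 11.10 and 11.17 and highest values of 11.69, 11.54 and 11.74. Its differences from control were -0.088 for clozapine (95% interval -0.29 to 0.11) and 0.0022 for haloperidol (-0.20 to 0.20).

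Their immunoproteasome counterparts were largely at background. Psmb8, the interferon-induced form of Psmb5, lay between 2.25 and 3.42 (median 2.51) in clozapine, 2.23 and 3.26 (median 2.44) in haloperidol and 2.12 and 3.08 (median 2.50) in control mice. Psmb9, which replaces Psmb6, lay between 2.31 and 2.53 (median 2.34), 2.18 and 2.44 (median 2.33), and 2.24 and 2.49 (median 2.31) in the same order. No array of any group lifted either gene to the level required for testing. Psmb10, which replaces Psmb7, was measured, with lowest, median and highest values of 6.86, 7.37 and 8.29 in clozapine, 6.47, 7.20 and 8.59 in haloperidol and 6.98, 7.31 and 7.59 in control mice. In 9 of 10 clozapine mice it lay above the control mean, but the difference of 0.18 (SE 0.17) did not pass the test.

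Among the non-catalytic beta subunits, Psmb4 was the steadiest in control mice. Its lowest, median and highest values were 10.55, 11.03 and 11.34 in clozapine, 10.93, 11.06 and 11.80 in haloperidol and 10.78, 11.02 and 11.08 in control mice. For this probe set the clozapine and control means were equal to 2 decimals, and haloperidol differed from control by 0.16 (SE 0.10, unadjusted p = 0.126). Without haloperidol 2, which held the top value, the difference was 0.086. A second probe set of Psmb4 gave 0.23 for clozapine against control (unadjusted p = 0.0544 in limma). It gave 0.16 for haloperidol against control and 0.071 for clozapine against haloperidol, where the main one gave -0.16. Psmb2 had values of 7.34, 7.70 and 8.59 in clozapine, 7.28, 7.85 and 8.31 in haloperidol and 6.46, 7.76 and 7.96 in control mice. The haloperidol and control medians lay closer together than the means, which differed by 0.24 (SE 0.18), and control 1 alone held the value of 6.46. The difference changed sign, to -0.012, with a block for array clusters. Psmb1 and Psmb3 had differences between -0.070 and 0.090. Of the 7 constitutive beta genes, 6 were higher in clozapine than in control and 5 were higher in haloperidol than in control, with medians of 0.020 and 0.090 and none called.

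The 6 ATPases of the cap were all tested and none was called. Psmc2 had the smallest unadjusted p of them, in clozapine against control. Its lowest, median and highest values were 10.96, 11.34 and 11.88 in clozapine, 10.85, 11.17 and 11.88 in haloperidol and 10.89, 11.02 and 11.54 in control mice. Of the clozapine mice 9 of 10 lay above the control mean, but the ranges overlapped widely. The difference was 0.21 (95% interval -0.045 to 0.46, unadjusted p = 0.103), and adding a block for array clusters left 0.063. A second probe set of the gene gave -0.072 for the same comparison; the main one carries the _x_at suffix that Affymetrix gives to sets whose probes can also match other transcripts. Psmc5 had values of 10.01, 10.69 and 10.95 in clozapine, 10.20, 10.79 and 11.20 in haloperidol and 10.51, 10.75 and 11.01 in control mice. Clozapine differed by -0.17 (SE 0.12) from control and by -0.18 (SE 0.12) from haloperidol. Its 3 lowest clozapine values were those of clozapine 8, 9 and 10. Psmc1 ran from 9.22 to 10.31 (median 9.72) in haloperidol and from 9.11 to 10.39 (median 9.31) in control mice. That gap of medians came with a difference in means of 0.22 (SE 0.22), and with array clusters as a block the difference was -0.016. By their main probe sets, Psmc3, Psmc4 and Psmc6 had differences between -0.14 and 0.15. Further probe sets of Psmc6 gave -0.39 and -0.30 for haloperidol against control (SE 0.30 and 0.20). For clozapine against haloperidol they gave 0.44 and 0.31, and for clozapine against control 0.044 and 0.013. None of these had an unadjusted p under 0.05 in limma.

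Psmd1, the large scaffold subunit of the cap, had the smallest unadjusted p of the tested proteasome genes. Its lowest, median and highest values were 9.84, 10.19 and 10.62 in clozapine, 9.47, 9.92 and 10.23 in haloperidol and 9.86, 10.02 and 10.44 in control mice. Haloperidol 1, 3 and 6 were the lowest arrays of all, between 9.47 and 9.57, and clozapine 2, 6, 9 and 10 the highest, with the ranges overlapping. Clozapine exceeded haloperidol by 0.37 (SE 0.12, 95% interval 0.13 to 0.61, or 1.29-fold), with 9 of 10 clozapine mice above the haloperidol mean. The unadjusted p was 0.00379 and the adjusted p in limma 0.965. Control lay between the drugs: the difference was 0.17 (SE 0.12) for clozapine and -0.20 (SE 0.12) for haloperidol. The arrays fall into clusters by their whole profile, described further on, and Psmd1 was higher in one of them. It averaged 9.93 ± 0.29 in the 11 arrays of cluster A, 9.96 ± 0.06 in the 8 of cluster B and 10.38 ± 0.20 in the 7 of cluster C (SD), so that the means of A and B lay within their spread; cluster C holds 5 clozapine arrays and no haloperidol array. Within cluster A the drugs differed by 0.24 (3 clozapine and 5 haloperidol arrays), and within cluster B by 0.012 (1 and 3 arrays). With clusters as a block the difference was 0.22 (unadjusted p = 0.0805).

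Psmd3, a structural subunit of the lid, had the largest difference of the 43 proteasome genes between clozapine and control, 0.48 (SE 0.25, unadjusted p = 0.0602). Its lowest, median and highest values were 7.75, 8.21 and 8.81 in clozapine, 7.46, 8.01 and 9.23 in haloperidol and 5.59, 8.04 and 8.26 in control mice. One array, control 1, held the lowest value of all at 5.59, with the next control array at 7.65. Without it the difference was 0.24 (unadjusted p = 0.162), and the difference between haloperidol and control was -0.0075 in place of 0.24. Psmd13, another lid subunit, was likewise low in control 1. It had values of 7.59, 8.07 and 8.68 in clozapine, 7.55, 7.99 and 9.18 in haloperidol and 5.63, 8.07 and 8.32 in control mice. The clozapine and control medians were equal to 2 decimals; the difference in means was 0.33 with control 1 and 0.083 without it.

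Psmd6, also of the lid, had values of 10.07, 10.34 and 10.58 in clozapine, 9.27, 10.22 and 10.49 in haloperidol and 10.15, 10.32 and 10.68 in control mice. Haloperidol was the low group, with 9 of 10 arrays below the control mean and haloperidol 2 lowest at 9.27. Haloperidol differed from control by -0.23 (SE 0.12, unadjusted p = 0.0661) and clozapine from haloperidol by 0.21 (SE 0.12). Without haloperidol 2 these were -0.13 and 0.12. A second probe set of Psmd6, over all arrays, gave 0.14 and -0.010 for these comparisons. Psmd7, the partner of the deubiquitinase Psmd14, had values of 7.82, 8.52 and 9.26 in clozapine, 7.68, 8.91 and 9.23 in haloperidol and 8.34, 8.89 and 9.43 in control mice. Clozapine was the low group, with 7 of 10 arrays below the control mean and a difference of -0.32 (SE 0.20). Psmd14 itself averaged 9.81 ± 0.14 in clozapine, 9.86 ± 0.35 in haloperidol and 9.83 ± 0.19 in control mice (SD, n = 10 each), and its differences lay between -0.049 and 0.024. Psmd4, a ubiquitin receptor of the cap, had differences between -0.027 and 0.012. Psmd2, which docks ubiquitin shuttles, was lower in clozapine by differences of -0.23 from control and -0.20 from haloperidol (SE 0.18 each). By their main probe sets, Psmd8, Psmd11 and Psmd12 had differences between -0.15 and 0.13. Further probe sets of Psmd11 gave -0.24, -0.27 and -0.42 for clozapine against haloperidol, none with an unadjusted p under 0.05 in limma. Over the 11 non-ATPases, 4 were higher in clozapine than in control and 5 in haloperidol than in control, and 6 were higher in clozapine than in haloperidol.

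**Figure D2:**
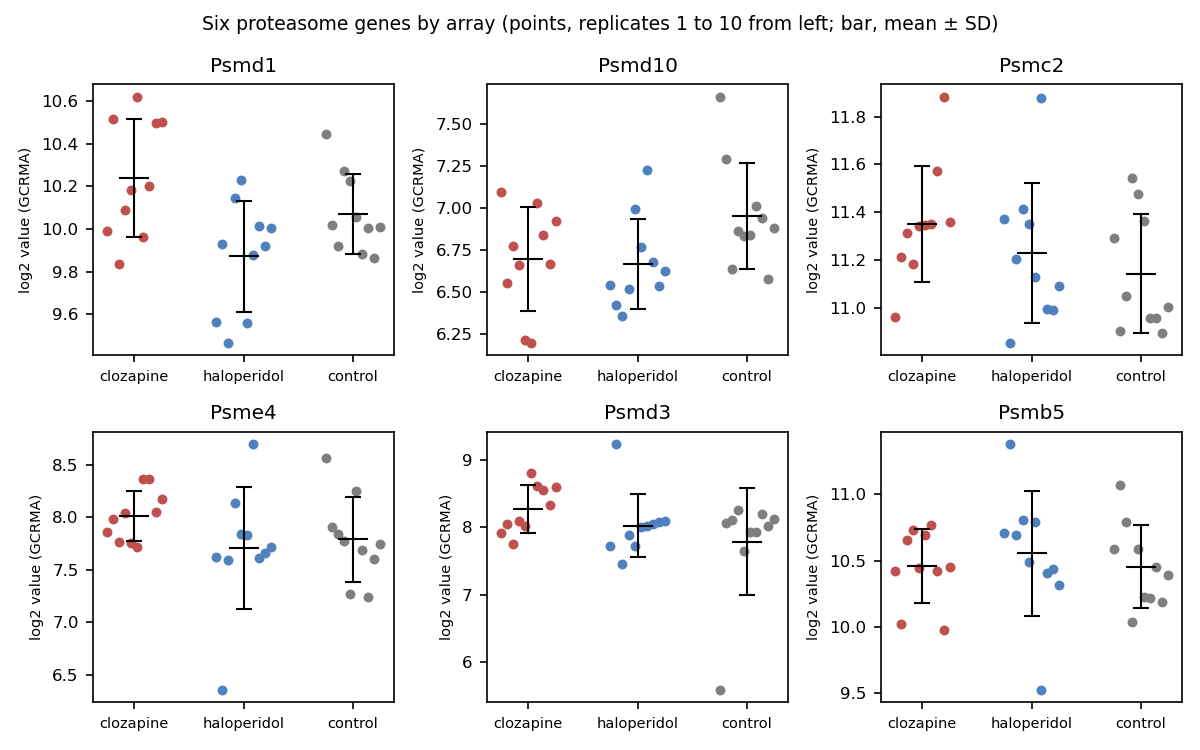
Log2 values of 6 genes in every array, with the 10 clozapine, 10 haloperidol and 10 control arrays side by side, replicates 1 to 10 running from the left within a group, and bars for the mean ± SD. The groups overlap in each panel; control 1 at 5.59 sets the control SD of Psmd3, and haloperidol 2 and 7 set the ends of the haloperidol range of Psmb5.

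The core was set against the cap within each array, by centring each gene on its mean over the 30 arrays and averaging. The core minus the cap was -0.023 ± 0.096 in clozapine, 0.019 ± 0.16 in haloperidol and 0.0038 ± 0.18 in control mice (SD, n = 10 each), so the group means differed by less than the spread within any group. Its lowest, median and highest values were -0.16, -0.035 and 0.13 in clozapine, -0.19, 0.042 and 0.29 in haloperidol and -0.17, -0.099 and 0.37 in control mice. Of the 15 core genes tested, 8 were higher in clozapine and 7 in haloperidol than in control. Of the 17 cap genes, 7 were higher in clozapine and 10 in haloperidol than in control. Median differences from control were 2.3e-05 for the core and -0.013 for the cap in clozapine, and -0.018 for the core and 0.012 for the cap in haloperidol. Counting every Psmc and Psmd gene as cap, the chaperones Psmd5, Psmd9 and Psmd10 included, gave 20 genes with medians of -0.020 and 0.0082.

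**Figure D3:**
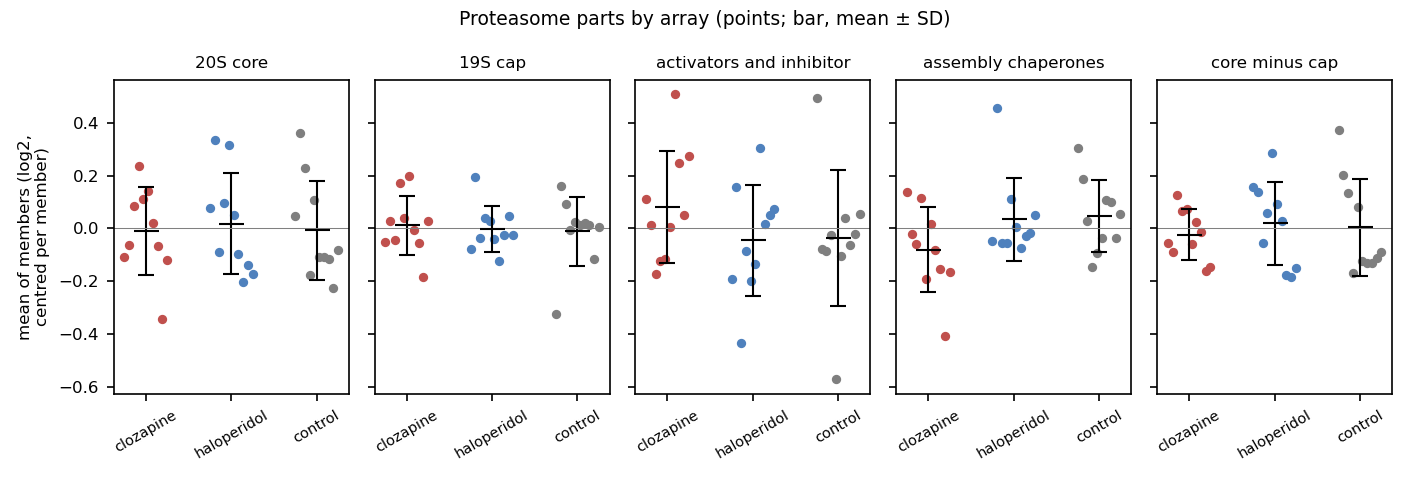
Mean of the centred log2 values of the tested genes of a part in each array (points), with bars for the mean ± SD of the 10 arrays of a group; the last panel is core minus cap. The groups overlap in every panel, and the core varies more between arrays of a group than the cap, with SDs of 0.17, 0.19 and 0.19 against 0.11, 0.087 and 0.13 for clozapine, haloperidol and control.

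The assembly chaperones included the only proteasome gene with an unadjusted p under 0.05 in haloperidol against control. Psmd10, or gankyrin, which helps assemble the ATPase ring, had lowest, median and highest values of 6.20, 6.72 and 7.10 in clozapine, 6.35, 6.58 and 7.23 in haloperidol and 6.58, 6.87 and 7.66 in control mice. In each drug group 8 of 10 mice lay below the control mean, and the ranges overlapped. The difference was -0.29 for haloperidol (SE 0.14, 95% interval -0.57 to -0.0046, or 0.82-fold) and -0.26 for clozapine (SE 0.14). Unadjusted p-values were 0.0466 and 0.0716, and adjusted p-values in limma 0.9999 and 0.9997. The control mean rests partly on control 1, the highest at 7.66; without it the haloperidol difference was -0.21 (unadjusted p = 0.118). Within cluster A haloperidol differed from control by -0.29 (5 and 3 arrays) and within cluster B by -0.24 (3 and 4 arrays).

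Psmd9, another chaperone of the ATPase ring, had values of 4.48, 6.51 and 6.82 in clozapine, 5.57, 6.63 and 7.43 in haloperidol and 6.10, 6.56 and 6.74 in control mice. The medians lay close together, while clozapine 9 at 4.48 and clozapine 7 at 5.33 were below every other array. Clozapine differed from haloperidol by -0.41 (SE 0.22, unadjusted p = 0.0758), and by -0.22 without clozapine 9. Psmg1, which with Psmg2 starts the alpha ring, had values of 6.37, 7.28 and 7.80 in clozapine, 6.78, 7.32 and 8.24 in haloperidol and 6.79, 7.36 and 7.54 in control mice. Clozapine minus haloperidol was -0.28 (SE 0.18), but 0.12 with array clusters as a block. Psmg2, Psmg3 and Psmd5 had differences between -0.12 and 0.097, and Psmg4 did not exceed 2.24 in any array. Of the 6 chaperone genes tested, 5 were lower in clozapine than in control (median -0.14) and 2 were lower in haloperidol (median 0.024); none was called.

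The 4 regulators had higher means in clozapine mice than in either other group, without any passing the test. Medians of their differences were 0.12 against control and 0.079 against haloperidol, where 55.3% and 60.7% of all probe sets were higher. Against control Psmf1 differed by only 0.0089, and Psmf1, Psme1 and Psme3 changed sign under 2, 1 and 1 of the other settings. The mean of the 4 centred values was highest in clozapine 7 (0.51), control 1 (0.49) and haloperidol 7 (0.31). Their gaps between the 3′ and 5′ ends were 1.24, 4.09 and 2.45. In the other arrays with a gap above 1 the mean was 0.28 (clozapine 10), 0.25 (clozapine 8), 0.16 (haloperidol 2), 0.0067 (clozapine 6) and -0.025 (control 4). The median gap was 0.88 in clozapine, 0.56 in haloperidol and 0.67 in control mice. The part of RNA integrity in these means was not tested. With the gap as a covariate the 4 differences lay between 0.0042 and 0.26 against control and between 0.0065 and 0.26 against haloperidol. Psme4, the nuclear activator PA200, had lowest, median and highest values of 7.72, 8.02 and 8.37 in clozapine, 6.36, 7.69 and 8.70 in haloperidol and 7.24, 7.76 and 8.57 in control mice. All 10 clozapine mice lay above the haloperidol mean, yet both ends of the haloperidol range came from haloperidol 2 and haloperidol 7 and enclosed the clozapine range. The difference between the drugs was 0.30 (SE 0.19, unadjusted p = 0.125). Its 2 further probe sets gave 0.36 (unadjusted p = 0.0397, adjusted p = 0.965 in limma) and 0.20. For the main probe set the difference was 0.15 without haloperidol 2, 0.41 without haloperidol 7 and 0.053 with array clusters as a block.

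Psme1, the alpha subunit of the interferon-inducible activator PA28, had values of 8.29, 8.78 and 9.32 in clozapine, 8.18, 8.64 and 9.93 in haloperidol and 8.12, 8.79 and 9.49 in control mice. Its differences were all between 0.024 and 0.063. Psme3, the subunit of the nuclear PA28 gamma, had values of 7.41, 8.03 and 8.78 in clozapine, 7.20, 8.01 and 8.55 in haloperidol and 6.94, 7.85 and 8.51 in control mice. Clozapine differed from control by 0.17 (SE 0.18), and a second probe set gave -0.22. Psmf1, the inhibitor PI31, had values of 6.70, 6.83 and 7.08 in clozapine, 6.48, 6.75 and 7.36 in haloperidol and 6.63, 6.78 and 7.11 in control mice. It was among the steadiest genes, with a difference between the drugs of 0.046 (95% interval -0.15 to 0.24). Its second probe set had a larger one, 0.46 (unadjusted p = 0.0444, adjusted p = 0.965 in limma), and another 0.32. Psme3ip1 had differences between 0.037 and 0.11, and Psmc3ip lay between 3.74 and 4.70 over all arrays.

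Across the 18 genes with more than 1 tested probe set, the 25 further probe sets had the sign of the main one in 11 cases for clozapine against control, 16 for haloperidol against control and 18 for clozapine against haloperidol. An unadjusted p under 0.05 was reached by 1, 0 and 2 of them, those of Psma6, Psme4 and Psmf1 given above. Where the sections above name no further probe set, the differences are those of the main one.

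Genes that act with the proteasome were examined as lists. Of the proteasome-associated and maturation genes, 12 of 14 were measured; 9 were higher and 3 lower in clozapine than in control (median 0.080), 3 higher and 9 lower in haloperidol than in control (median -0.086), and 9 higher and 3 lower in clozapine than in haloperidol (median 0.20). None was called in limma. In haloperidol against control the neuron markers also lay lower, 8 of 8 with a median of -0.10 and none called. In clozapine against control 3 of 8 were higher (median -0.0085). Oligodendrocyte and endothelial markers were likewise lower in haloperidol, 4 of 5 and 3 of 4 (medians -0.093 and -0.17). So were 5 of 8 microglia markers (median -0.026) and 3 of 6 astrocyte markers (median -0.014). Of all probe sets 43.5% were higher in haloperidol than in control. The part of any of these markers in the differences of the list was not tested. Pomp, the maturation factor of the core, averaged 10.09 ± 0.22 in clozapine, 9.85 ± 0.29 in haloperidol and 10.03 ± 0.12 in control mice (SD, n = 10 each), with a difference of 0.24 between the drugs (unadjusted p = 0.0339, adjusted p = 0.965 in limma) and of -0.18 between haloperidol and control (unadjusted p = 0.10). Pithd1, which binds the proteasome, followed for haloperidol against control (-0.25) and clozapine against haloperidol (0.37). Txnl1, a thioredoxin-like protein of the cap, and the ubiquitin ligase Ube3a led clozapine against control with 0.39 and 0.30, both with an unadjusted p above 0.05.

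Of the Nrf1 and Nrf2 factors and partners, 5 of 7 were tested: 5 of 5 were higher in clozapine than in control (median 0.25), 4 of 5 in haloperidol than in control (median 0.17) and 4 of 5 in clozapine than in haloperidol (median 0.20). None was called or had an unadjusted p under 0.05. Nfe2l2, which encodes Nrf2, averaged 5.92 ± 0.43 in clozapine and 5.65 ± 0.64 in control mice, and the small Maf partner Mafg 8.28 ± 0.27 and 8.03 ± 0.35. Keap1, which holds Nrf2 in check, differed by 0.22 between haloperidol and control, and Ngly1, which deglycosylates Nrf1, by -0.22; between the drugs Ngly1 differed by 0.25 and Mafg by 0.20.

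Of the shuttle and p97 genes 12 of 14 were tested, with 4, 5 and 7 higher in the comparisons in the order above and medians of -0.031, -0.028 and 0.029. Nploc4, a cofactor of the p97 unfoldase, differed from control by 0.31 in clozapine and 0.33 in haloperidol (unadjusted p = 0.0695 and 0.0563). Vcp, p97 itself, differed by -0.38 between clozapine and control and by -0.36 between the drugs, Ufd1 by -0.51 between haloperidol and control, and the shuttle Rad23b by 0.27 between the drugs. Of the E1 and E2 enzymes 21 of 26 were tested, with 10, 6 and 13 higher and medians of -0.0039, -0.083 and 0.074. Ube2k and Ube2b led clozapine against control (-0.26 and -0.27), Ube2d3 and Ube2v2 haloperidol against control (-0.26 and -0.27), and Ube2d2a and Ube2j1 clozapine against haloperidol (0.16 and 0.21). The 4 ubiquitin precursor genes had no probe set with a single symbol.

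Interferon and antigen presentation genes, whose induction accompanies the immunoproteasome, had 5 of 8 tested and none called; 4 of the 5 were higher and 1 lower in each drug group than in control (median 0.14 for both drugs), and B2m was the lower one. B2m, the light chain of MHC class I, averaged 9.97 ± 0.39 in clozapine, 9.76 ± 0.43 in haloperidol and 10.35 ± 0.40 in control mice (SD, n = 10 each). It differed from control by -0.59 in haloperidol (unadjusted p = 0.00261, adjusted p = 0.9999 in limma) and by -0.38 in clozapine (unadjusted p = 0.0420), and between the drugs by 0.21. Irf9 differed from control by 0.35 in haloperidol and 0.18 in clozapine, and by -0.17 between the drugs. Tap1 and Tap2, the peptide transporter subunits, were below the level tested, as were Psmb8 and Psmb9.

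The spread of the proteasome genes within groups was mostly below that of other probe sets. The median residual SD was 0.32 (range 0.15 to 0.75), against 0.44 over all probe sets. All probe sets tested reach down to a mean of 4, whereas the proteasome genes had means between 5.15 and 11.35. Neither this comparison nor those of cluster means below was matched for level. Arrays were clustered on all probe sets without the proteasome genes, which gave clusters A, B and C of 11, 8 and 7 arrays and the 4 single arrays named above. Clozapine, haloperidol and control had 3, 5 and 3 arrays in A, 1, 3 and 4 in B, and 5, 0 and 2 in C. The clusters went with the replicate numbers of the labels in part: all 11 arrays of A are replicates 1 to 6, 7 of the 8 in B are replicates 7 to 10, and C has 4 and 3. The labels do not say what a replicate number marks. Psma7 averaged 10.37 ± 0.36 in A, 9.28 ± 0.11 in B and 8.89 ± 0.26 in C (SD), a range of 1.48. For this gene A ran from 9.72 to 10.86, B from 9.18 to 9.47 and C from 8.61 to 9.35. Psmc1 was 10.26 ± 0.11, 9.33 ± 0.10 and 9.19 ± 0.22 in A, B and C. Psma4, with a range of 1.15 between cluster means, was 9.85 ± 0.14 in B and 9.87 ± 0.34 in C and ran from 10.25 to 11.67 in A. Psmd8 ran the other way, with 8.10 ± 0.19 in A, 9.08 ± 0.15 in B and 8.69 ± 0.20 in C. At the other extreme Psmd12 averaged 9.56, 9.58 and 9.57. The median range of the 3 cluster means was 0.36 for the proteasome genes and 0.50 for all probe sets. Of all probe sets, 92.2%, 86.7%, 84.7% and 82.2% had a narrower range than Psma7, Psma4, Psmc1 and Psmd8.

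**Figure D4:**
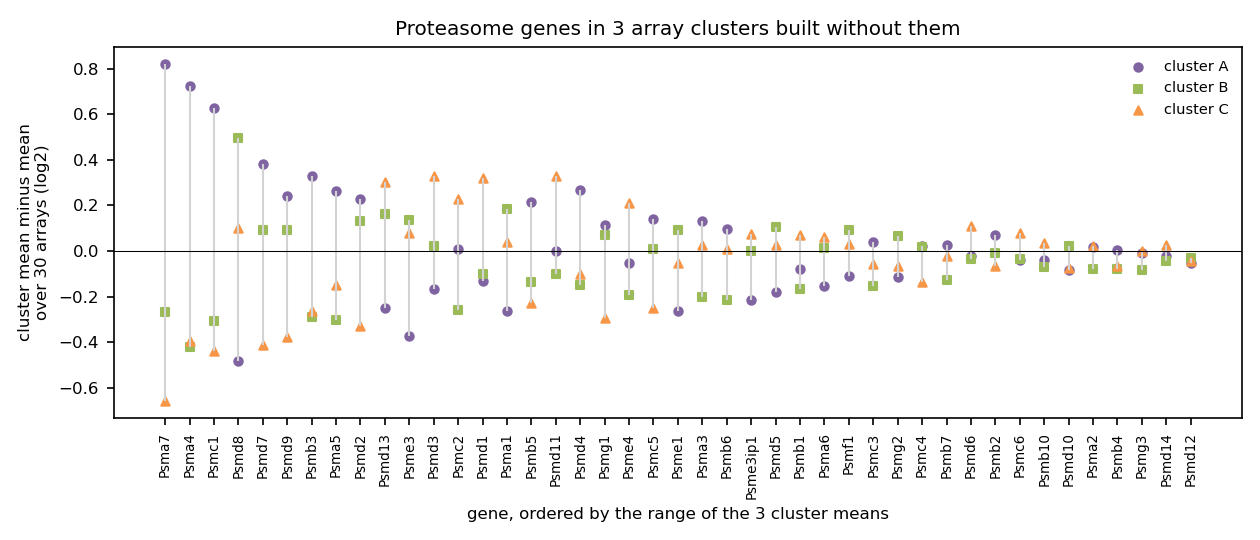
Mean log2 value of each tested gene in array clusters A (11 arrays), B (8) and C (7), relative to its mean over the 30 arrays, with genes ordered by the range of the 3 means. Psma7, Psma4 and Psmc1 are highest in cluster A, Psmd8 is lowest there, and Psmd12 hardly differs.

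Single arrays stood out across many genes at once. Haloperidol 2 held the highest value of its group for 22 of 43 genes, or 51.2%, where it did so for 30.7% of all probe sets, among them Psmb1, Psmb3, Psmb4, Psmb10, Psmc4 and Psmd3. It held the lowest value for 9 genes (20.9%, against 23.5% of all probe sets), among them Psmc6, Psmd6 and Psme4. Clozapine 9 held the lowest value for 13 genes (30.2%, against 11.3% of all probe sets), and control 9 was lowest for 10 genes (23.3%, against 5.51%). Control 9 also lay below the median of the other control arrays for 34 of 43 genes, or 79.1%, against 54.5% of all probe sets. Control 2 was the highest of its group for 13 genes (30.2%, against 10.1%). Of these only haloperidol 2 also stood apart over the whole array.

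**Figure D5:**
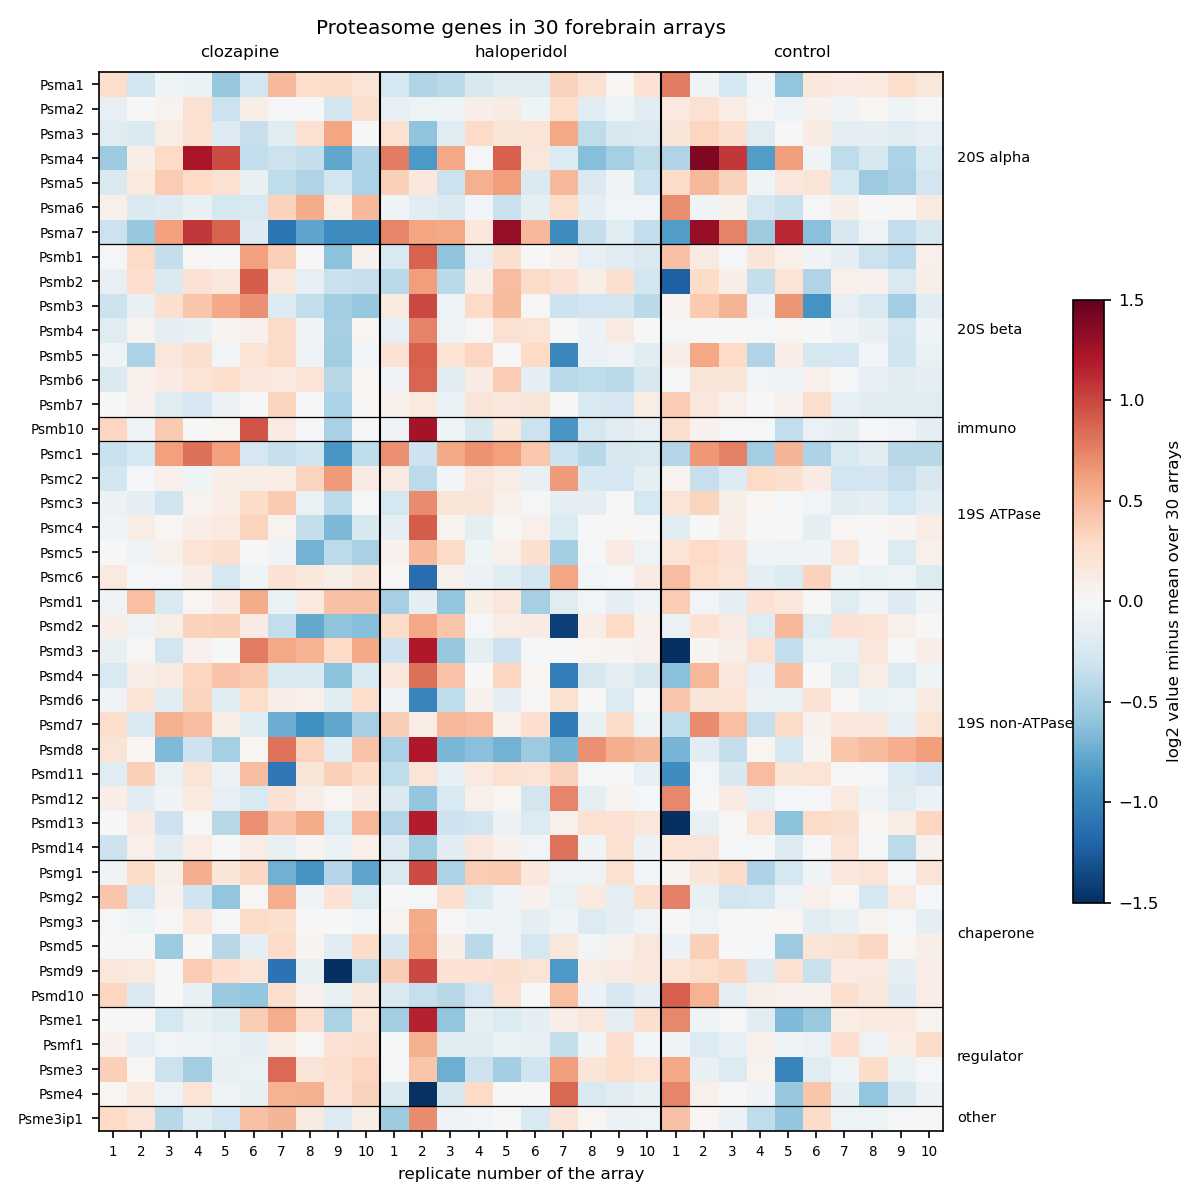
Each cell is the log2 value of a gene in 1 array minus the gene's mean over the 30 arrays, with clozapine, haloperidol and control arrays from left to right and genes grouped by role; values beyond the ends of the colour scale take the end colour. Haloperidol 2 is mostly a column of high values, and no block of genes is uniformly higher or lower in a treatment group.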

How the data were processed

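Each deposited value is the log2 intensity of a probe set on an array. The submitters' processing notes name GCRMA, without a version; scanner and scan dates are not stated. GCRMA compresses differences near background. The number of arrays limits the precision, and the median SE of a difference was 0.15 for the tested proteasome genes.

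Groups came from sample titles. Gene symbols are those of the platform annotation. Of 22626 probe sets without Affymetrix controls, 12944 with a mean of at least 4 were tested in limma 3.58.1 (R 4.3.3; lmFit and eBayes, 1 fit of 30 arrays, two-sided, 27 residual degrees of freedom), with Benjamini-Hochberg adjustment over all of them and calls at an adjusted p under 0.05. Unadjusted p-values are from the same fit. That fit was tested on simulated data with independent normal noise. The simulation had no array clusters and no arrays that stand apart, so it does not cover p-values under that structure. Genes given with values were those with the 4 smallest p in each direction of a comparison, the catalytic subunits, the activators and inhibitor, and the 2 leading genes of each list. Others, among them Psma7, Psma4, Psmd8 and Psmd14, were chosen after their values were seen. The proteasome genes and lists were chosen with earlier results of these data known. Each comparison was repeated under 14 alternatives, 1 of them added after seeing the data: filters, scalings, blocks, a covariate for RNA integrity, array weights with and without a block, 3 arrays left out singly or together, and the mean of a gene's probe sets. Array clusters came from average-linkage trees of 1 minus the Pearson correlation, divided into 7. In the block for array clusters each of the 4 single arrays was a block of its own. The differences under that block therefore do not draw on clozapine 7, haloperidol 2, haloperidol 7 or control 1.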

Additional observations from a re-analysis of the deposited data

Results flagged for a closer look

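Within each group of 10 arrays, a gene's highest or lowest value was picked out when its gap to the nearest other value was large against the group's whole range (Dixon's test at the 95% level). Chance flags about 1 in 20 groups. Of 129 sets of values, 27 values were picked out: 11 in haloperidol 2, 6 in control 1, 5 in haloperidol 7, 2 in control 5 and 1 each in clozapine 6, clozapine 7 and control 9. The rate over all probe sets was not worked out, so the count does not set these genes apart. Haloperidol 2, control 1 and haloperidol 7 were the highest of their group for 30.7%, 35.2% and 29.2% of all probe sets. They were the lowest for 23.5%, 18.6% and 18.8%.

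Haloperidol 2 was high for 8 genes. They were the core genes Psmb4 (11.80, next 11.28) and Psmb10 (8.59, next 7.50), the cap ATPases Psmc3 (10.45, next 9.93) and Psmc4 (10.28, next 9.45), the lid genes Psmd3 (9.23, next 8.09) and Psmd13 (9.18, next 8.23), the chaperone gene Psmg3 (5.71, next 5.21) and the activator gene Psme1 (9.93, next 9.03). The same array was low for Psmc6 (7.83, next 8.69), Psmd6 (9.27, next 9.88) and Psme4 (6.36, next 7.60).

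Control 1 was high for Psma6 (11.40), Psmd12 (10.33) and Psmg2 (8.22), and low for Psmb2 (6.46), Psmd3 (5.59) and Psmd13 (5.63). Haloperidol 7 was high for Psma6 (10.96) and Psmd12 (10.35), as control 1 was, and low for Psmd2 (8.51), Psmd7 (7.68) and Psmd9 (5.57). These are the 2 arrays with the largest gap between the 3′ and 5′ ends of control transcripts, whose part in these values was not tested.

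Control 5 was low for Psmd5 (6.996) and Psme3 (6.94), control 9 was low for Psmb4 (10.78), clozapine 6 was high for Psmb2 (8.59) and clozapine 7 was low for Psmd11 (9.23).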

How the results depend on the processing

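In every setting the count of proteasome genes called stayed at 0 in all comparisons, except with array weights. With them, 3 were called in clozapine against control, Psmc2 (0.32, adjusted p = 0.0266), Psmd1 (0.31, adjusted p = 0.0344) and Psme4 (0.38, adjusted p = 0.0337), while 1731 probe sets were called in limma, 13.4% of all; controls 7 to 10 had weights between 3.44 and 4.86. With array weights and a block for array clusters together, an alternative chosen after seeing the data, none of the 3 was called. For haloperidol against control 1 probe set was called with the cluster block and 5 with both.

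In haloperidol against control, Psmb2 turned to -0.012 with the cluster block, -0.0060 with array weights and -0.071 with both, and Psmc1 to -0.016 with the block and -0.037 with both. Psmd3 turned to -0.051, -0.12 and -0.048 under the same 3 settings, to -0.0075 without control 1 (leaving out single arrays gave -0.0075 to 0.24) and to -0.16 without control 1, haloperidol 2 and haloperidol 7. Psma1 turned to 0.0091 with the block, 0.0061 with both and 0.11 as the mean of its probe sets. In clozapine against haloperidol, Psmg1 turned to 0.12 with the block and 0.21 with both. The cause was not tested.

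With the replicate number as a block, 0 proteasome genes and 0 probe sets were called; deviations of arrays with the same number correlated between -0.50 and 0.80, and in no comparison did more than 3 of 10 arrays correlate best with their own number. Without haloperidol 7, 7 proteasome genes had an unadjusted p under 0.05 in clozapine against haloperidol, against 10.5% of all probe sets. Without control 1, haloperidol 2 and haloperidol 7 there were 6, against 17.8%, and the adjusted p of Psmd1 was 0.187 in limma. For the 24 pairs of gene and comparison with the smallest p, direction and call stayed as they were in 319 results under the alternatives. In 15 the sign changed, and in 2 the gene was newly called, as given above. The 319 include settings that could not move a difference: the filters, the replicate block, and leaving out arrays of the group not compared. Calls also started far from the threshold, at adjusted p-values of 0.965 or more in limma. The count is therefore not a measure of robustness. Over all 43 genes, 19 kept the sign of their difference in every setting in clozapine against control, 11 in haloperidol against control and 22 in clozapine against haloperidol. Among genes whose difference was larger than its SE, these were 13 of 13, 5 of 8 and 10 of 15. Removing haloperidol 2 or haloperidol 7 alone cannot alter clozapine against control. Nor can removing control 1 alone alter clozapine against haloperidol. The counts therefore do not rank the comparisons by stability, and they were not set against all probe sets. Psma7 changed sign under 2 settings in clozapine against haloperidol. Leaving out each of the 30 arrays in turn, also chosen after seeing the data, called no proteasome gene. Of the differences larger than their SE, 6 of 13 in clozapine against control, 6 of 8 in haloperidol against control and 8 of 15 in clozapine against haloperidol fell by more than 1.5 times without the array that moved them most. Among those not given above, Psmb10 in clozapine against control was 0.089 without clozapine 6, Psmc5 -0.11 without clozapine 8 and Psmd9 -0.12 without clozapine 9. In haloperidol against control Psma1 was -0.079 and Psmb2 0.12 without control 1. Without clozapine 8, Psma6 was 0.096 and Psmc5 -0.11 in clozapine against haloperidol; without haloperidol 2, Psmg1 was -0.18.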
